A study of Mus musculus with 24 samples.

Results

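The comparison described here is between C2C12 mouse myotubes kept for 72 h in vehicle medium (collected at day 10) and myotubes kept for 24 h in the same medium (day 8), with 4 libraries on each side and thus 8 of the 24 libraries of the series. The libraries were assigned by their labels, and the groups were chosen with earlier results of these data known. C2C12 is an established mouse myoblast line, labelled wild type, whose cells leave the cell cycle and fuse into multinucleated myotubes when serum is lowered. Every culture in the comparison was grown in 10% fetal bovine serum, changed at near confluence to high glucose medium with 2% serum for 7 days, and then given that medium with 1% ethanol, the vehicle. The other groups used below are day 7 myotubes and myotubes in 100 µM dexamethasone, a synthetic glucocorticoid, for 24 h or 72 h, again with 4 libraries each. No group of the comparison carries a transgene, a deletion or a drug. A single clonal line in culture, with no nerve and no load, limits what the cells model, and nothing in the labels ties a replicate to a culture of its own. The p-values therefore rest on the spread among libraries of a group, which may be technical. That spread was pooled over all 24 libraries of the series.

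Fusion of myoblasts depends on the membrane proteins myomaker (Mymk) and myomixer (Mymx). Young myotubes first assemble sarcomeres with embryonic and cardiac isoforms, such as the embryonic myosin heavy chain Myh3, and later replace them with neonatal and adult isoforms while the triads that couple membrane excitation to calcium release mature. Cultured C2C12 myotubes pass through only part of that programme.

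Polyadenylated RNA was sequenced from stranded libraries. The deposited values are TPM (transcript abundance scaled by length and by library) and log2 values that the authors normalised between libraries, and neither keeps the depth. The 8 libraries had 12569 to 12881 genes at 1 TPM or more. The labelled cell type was borne out by its markers: all 12 myotube markers were present in all 8 libraries, for example Myog (myogenin) at 1076 to 1507 TPM and Ttn (titin) at 11.1 to 40.8 TPM. Of 16 endothelial and blood cell markers, 10 were under 0.1 TPM in every vehicle library, and the sum of all 16 was 4.7 to 6.6 TPM at 24 h and 4.2 to 8.9 TPM at 72 h. Mitochondrially encoded genes took 6.35% to 9.81% of the TPM at 24 h and 9.04% to 15.5% at 72 h.

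The library labelled vehicle 72 h replicate 1 stood apart from the other vehicle libraries in transcripts that dexamethasone raises. Serpina3n, an acute-phase protease inhibitor, was at 0.0285, 0.0467, 0.0267 and 0.0853 TPM at 24 h and 25.4, 0.0757, 0.0279 and 0.115 TPM at 72 h. Zbtb16, a transcription factor induced by glucocorticoids, was at 0.412 TPM there, at 0.00429 TPM in vehicle 72 h replicate 2 and listed at 0 in the other 6 vehicle libraries. In that library the 10 dexamethasone-raised genes followed here summed to 254.2 TPM, against 88.8 to 112.0 TPM in the other 7 vehicle libraries and 803.2 to 2218.8 TPM in the dexamethasone libraries. Of 12 genes at 2 TPM or more in replicates 2 to 4 of dexamethasone 72 h and at 0.2 TPM or less in the other 3 vehicle 72 h libraries, all 12 were above 0.2 TPM in this library, at a median of 20.6% of their dexamethasone level. The same measure was 0.459% to 0.97% in the vehicle 24 h libraries, over 10 to 13 genes each. The cause was not tested, and results below are given with this library and without it. List members passed without it only where that is said. In brackets, the fold or log2 difference and adjusted p "without replicate 1" are those with this library left out. A call lost there does not show a smaller difference, and the size is given beside it.

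**Figure D1:**
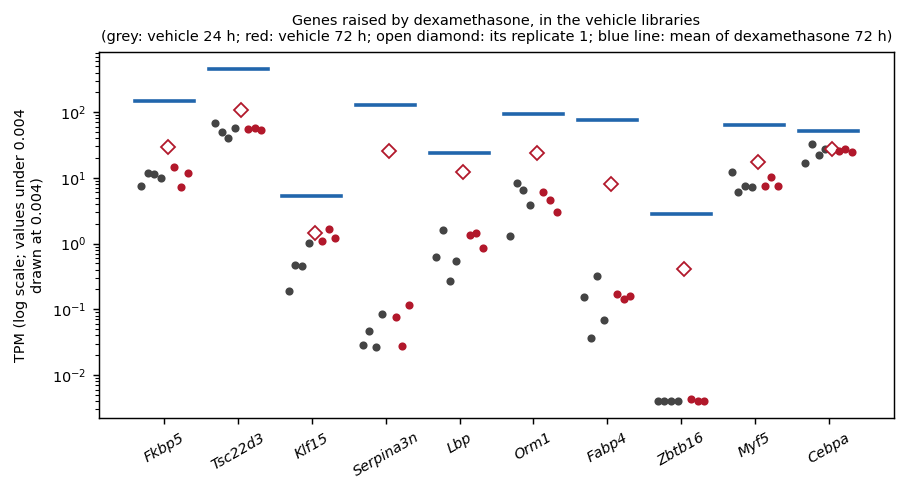
TPM (log axis) of 10 genes raised by dexamethasone in the 4 vehicle 24 h libraries (grey), the 4 vehicle 72 h libraries (red, with replicate 1 as an open diamond) and the mean of the dexamethasone 72 h libraries (blue line); values under 0.004 are drawn at 0.004. The open diamond lies above the other vehicle points for Serpina3n, Fabp4, Zbtb16, Lbp, Orm1, Fkbp5, Tsc22d3 and Myf5. For Klf15 and Cebpa it lies among the other points. The other 3 vehicle 72 h libraries lie near those at 24 h except for Klf15. They had 1.1, 1.65 and 1.23 TPM of Klf15, against 0.192 to 1 TPM at 24 h.

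From 24 h to 72 h in vehicle medium Mymx, which codes for a fusion protein, and the polarity scaffold gene Patj fell 1.66-fold and 1.62-fold, and Eef1a2, which codes for a translation factor, rose from 0.282 to 1.2 TPM. Of 16257 genes tested with limma, 434 were higher at 72 h (2.67%) and 275 lower (1.69%), 709 in all (4.36%), at an adjusted p (Benjamini-Hochberg over all genes tested) under 0.05. Without vehicle 72 h replicate 1 the test called 88 genes (0.541%), 50 higher (0.308%) and 38 lower (0.234%), and 86 of these (0.529%) were called in the same direction with all libraries, 50 higher and 36 lower. The lowest adjusted p was 0.00972, so no called gene lay far under the threshold. An unadjusted p under 0.05 was seen for 4003 genes (24.6%), most of them not called. The number called moved widely with single libraries. It was 19 without vehicle 24 h replicate 1, 2 without vehicle 24 h replicate 3, 36 without vehicle 72 h replicate 2, 5 without vehicle 72 h replicate 3, and 388 and 1751 without vehicle 24 h replicates 4 and 2. All 709 genes kept their sign in each of these fits. The fits share most libraries with the one that chose the genes, so a kept sign is no separate support. A fit to the 8 vehicle libraries alone called 4 genes. By log2(TPM + 0.1) the test called 270 genes (1.77% of 15250), 81.1% of them higher, against 61.2% in the deposited log2 values and 49.2% after quantile normalisation. On the TPM scale the median gene was itself higher by 0.13 (log2) at 72 h, and by 0.00 in the log2 values. The log2 values are also drawn in toward each gene's mean: their differences rose by 0.62 for each unit of log2 TPM difference across 12550 genes, so levels and folds below are in TPM and tests are on the log2 values.

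**Figure D2:**
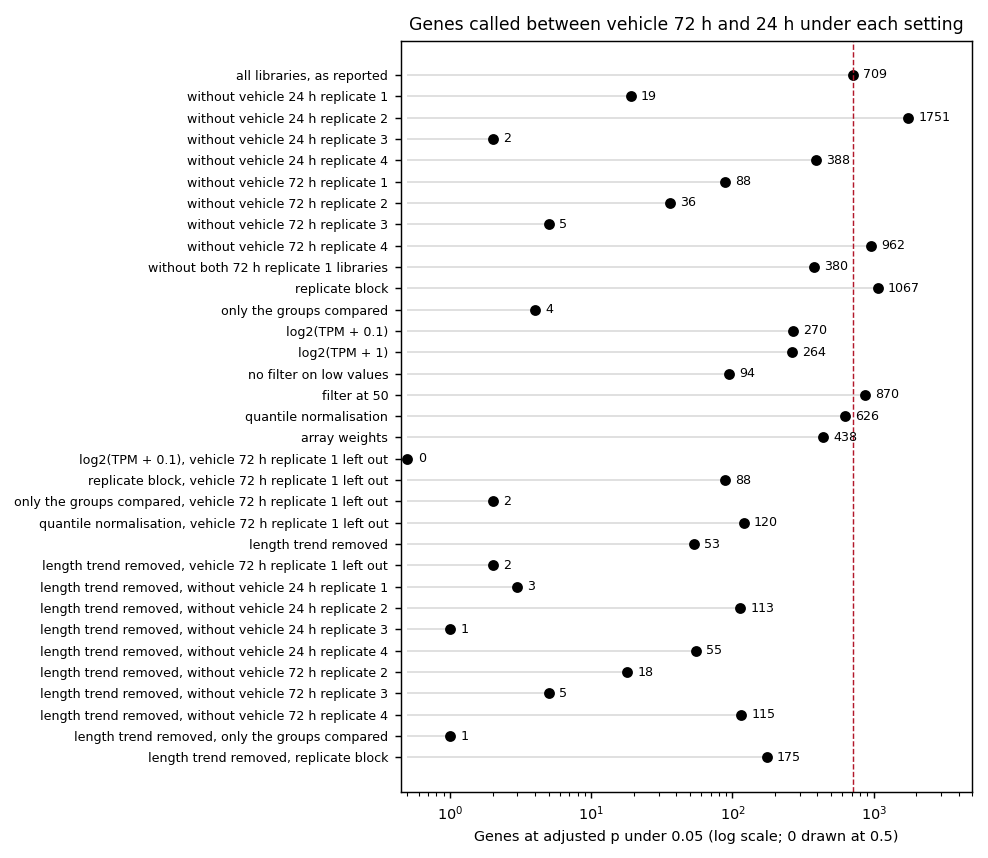
Number of genes at adjusted p under 0.05 between vehicle 72 h and 24 h (x axis, log scale, 0 drawn at 0.5) with all libraries (709, dashed line) and under each alternative. The count runs from 0 to 1751.

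Transcript length moved with the comparison. Genes were matched by identifier to the longest transcript of an older annotation (GRCm38), which gave a length for 16214 of the 16257 genes. The difference between 72 h and 24 h had a Spearman rank correlation of 0.46 with that length across genes, and 0.46 without vehicle 72 h replicate 1; genes share libraries and are not replicates, so no p is given. In the fifth of genes with the shortest transcripts (67 to 1701 bases) 3 genes were called higher and 143 lower, with a median log2 difference of −0.14. In the fifth with the longest (5017 to 123179 bases) 309 were called higher and 13 lower, with a median of 0.15. Genes called higher had a median length of 6230 bases and genes called lower 1626 bases, against 3121 over all genes tested. Within the vehicle libraries the correlation of each library's deviations with length was −0.32, 0.03, −0.37 and −0.22 at 24 h and 0.16, 0.40, 0.27 and 0.15 at 72 h, and the highest library at 24 h lay below the lowest at 72 h. When each library's trend on length was removed, an alternative chosen after seeing the data, 53 genes were called (0.327%), 34 higher and 19 lower, 51 of them also called with all libraries before that removal, and 2 were called without vehicle 72 h replicate 1 (0.0123%), Eef1a2 and Patj. The source of the trend was not tested.

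**Figure D3:**
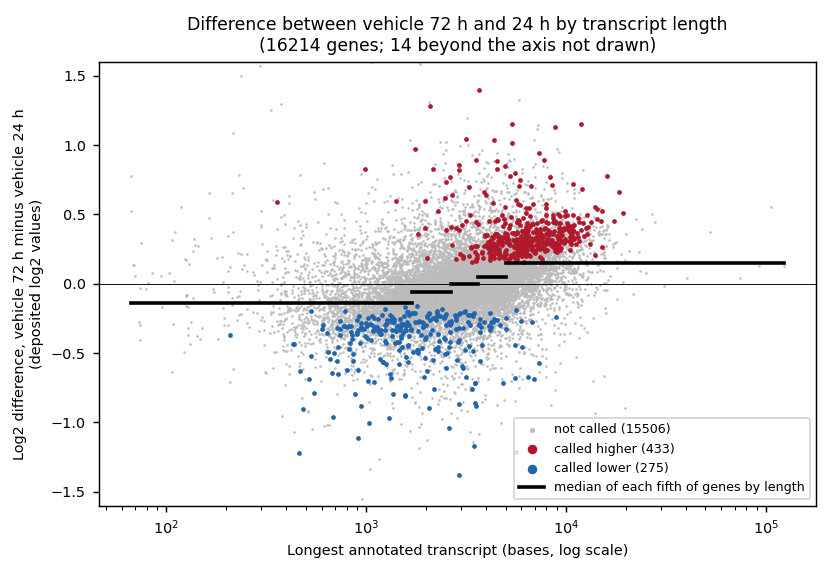
Log2 difference between vehicle 72 h and 24 h (y axis, deposited log2 values) against the longest annotated transcript in bases (x axis, log scale) for 16214 genes, of which 14 lie beyond the axis; genes called higher are red, genes called lower blue, and black bars are medians of 5 equal groups of the genes by length. The bars rise from −0.14 to 0.15.

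In the fusion list, Mymx passed and its partner did not. Mymx, the microprotein that completes fusion of myoblast membranes, was at 247, 292, 250.5 and 293 TPM at 24 h and 142, 154, 181 and 173 TPM at 72 h. All 4 libraries at 72 h were below all 4 at 24 h, as for 412 of the genes tested (2.53%). Mymx fell 1.66-fold (adjusted p = 0.00972, and 0.0415 at 1.6-fold without replicate 1). With the length trend removed its adjusted p was 0.0484. It passed in 22 of the 32 alternatives, with adjusted p-values from 0.000254 to 0.184. Its partner Mymk was at 854, 1001, 836 and 959 TPM at 24 h and 994, 1004, 1245 and 1167 TPM at 72 h, higher rather than lower in the mean, and did not pass (adjusted p = 0.509). Of 15 fusion genes tested, 1 was called lower and none higher, where 1.69% of all genes were called lower. The median log2 difference was 0.01 against 0.00 over all genes. Kirrel, an adhesion protein of fusing cells, was at 18, 27.1, 16.4 and 23.1 TPM at 24 h and 31.3, 41.6, 28.5 and 32.9 TPM at 72 h, without overlap, and missed the threshold (adjusted p = 0.0598).

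Among 14 embryonic, slow and cardiac sarcomere genes tested, 2 were called lower with all libraries and none higher, where 1.69% of all genes were called lower, and none passed without vehicle 72 h replicate 1. Their median difference was −0.08 in the log2 values, where that of all genes was 0.00, and 0.03 in log2 TPM, where that of all genes was 0.13. It was −0.15 without replicate 1, −0.05 with the length trend removed and −0.02 after quantile normalisation. Myh3 was at 219.6, 174, 155 and 178 TPM at 24 h and 139, 122, 108 and 140.4 TPM at 72 h. The groups did not overlap, and the fall with all libraries was 1.42-fold (adjusted p = 0.0462, and 0.0623 at 1.47-fold without replicate 1; 0.0484 with the length trend removed). It passed in 8 of the 32 alternatives, with adjusted p-values from 0.017 to 0.225. Myl4, the embryonic and atrial myosin light chain, was at 3001, 1796, 2506 and 2365 TPM at 24 h and 1969, 1549, 1404 and 1947 TPM at 72 h, with overlap between the groups (adjusted p = 0.0432, and 0.0585 at 1.48-fold without replicate 1). Actc1, the cardiac actin of young muscle, was at 670.3, 782, 714 and 718 TPM at 24 h and 454, 569, 565 and 631 TPM at 72 h, without overlap, and did not pass (adjusted p = 0.0843).

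Of 15 fast and adult sarcomere genes tested, 1 was called higher with all libraries, against 2.67% of all genes, and none lower, with a median log2 difference of 0.11. It was Myh2, the fast IIa myosin heavy chain, at 13.4, 10.3, 7.77 and 10.5 TPM at 24 h and 23.8, 16, 14.5 and 18.6 TPM at 72 h. Its groups did not overlap, with a 1.73-fold rise (adjusted p = 0.0388, and 0.0809 at 1.56-fold without replicate 1). Neonatal Myh8 was at 91.6, 57.2, 39.2 and 75.3 TPM at 24 h and 153, 90.3, 112 and 107 TPM at 72 h, with a mean 1.76 times as high, and missed the threshold (adjusted p = 0.0654). The adult heavy chains Myh1 and Myh4, with means of 304 TPM at 24 h and 415 TPM at 72 h and of 49.6 TPM at 24 h and 73.5 TPM at 72 h, did not pass (adjusted p = 0.265 and 0.527), and neither did slow Myh7, at 19.3 TPM at 24 h and 23.2 TPM at 72 h (0.87). The fast light chain Mylpf had means of 10930 TPM at 24 h and 8177 TPM at 72 h and an adjusted p of 0.0585, with its 24 h values led by replicate 1 at 14160 TPM. Skeletal actin Acta1 had means of 4852 TPM at 24 h and 6327 TPM at 72 h (adjusted p = 0.401). Ckm, the muscle creatine kinase, was high in replicate 1 of both groups, at 174, 38.8, 46.2 and 62.8 TPM at 24 h and 226, 26, 70.5 and 39.7 TPM at 72 h, so its spread within a group was wider than the difference between them.

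**Figure D4:**
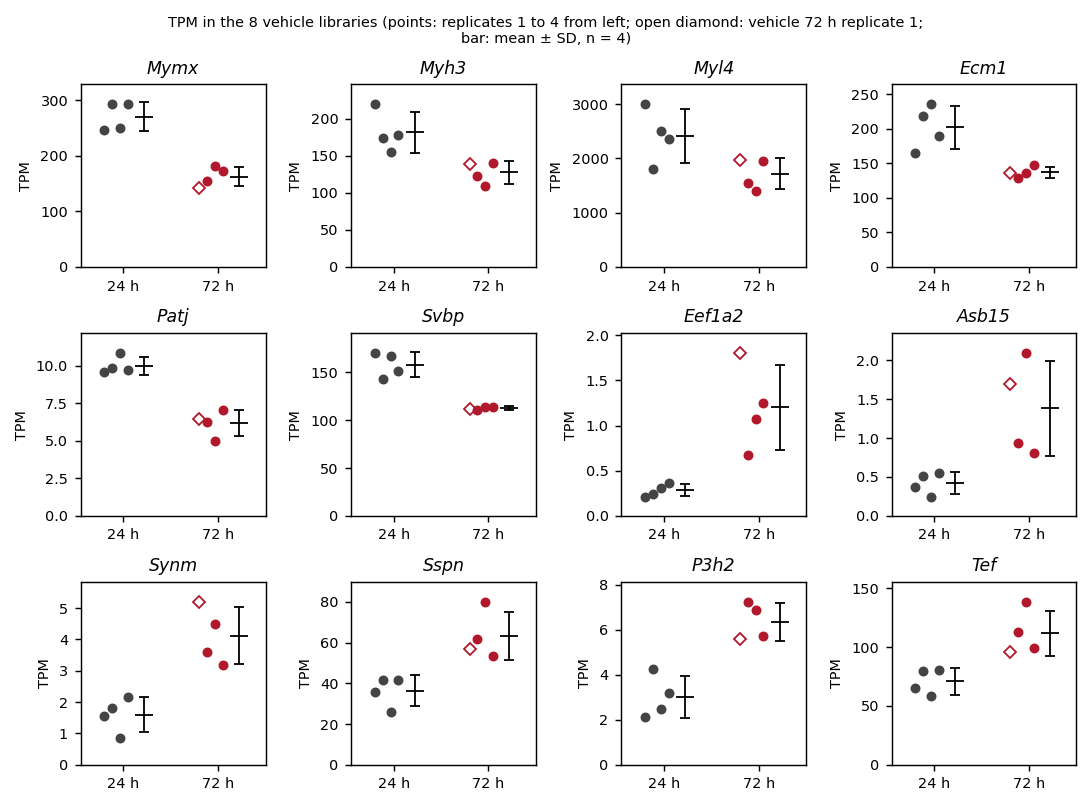
TPM (y axis, from 0) of 12 genes in the 4 vehicle 24 h libraries (grey) and the 4 vehicle 72 h libraries (red, with replicate 1 as an open diamond), with mean ± SD beside them (n = 4). Mymx, Myh3, Ecm1, Patj and Svbp have all 72 h libraries below all 24 h libraries, Myl4 overlaps, and the remaining 6 genes have all 72 h libraries above.

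Eef1a2 and Mymx shared the lowest adjusted p. Eef1a2 codes for the elongation factor 1-alpha of adult muscle, heart and nerve. It was chosen after its values were seen, since it lies under the minimum of 2 TPM set for named genes. Eef1a2 was at 0.209, 0.246, 0.313 and 0.361 TPM at 24 h and 1.81, 0.678, 1.08 and 1.25 TPM at 72 h. Every 72 h library was above every 24 h library, as for 1735 of the genes tested (10.7%), and the mean went from 0.282 ± 0.0679 to 1.2 ± 0.468 TPM. Its log2 difference was 1.28 ± 0.19 (SE; adjusted p = 0.00972, and 0.0415 at a log2 difference of 1.10 without replicate 1; 0.00884 with the length trend removed, and 0.0265 with that trend and vehicle 72 h replicate 1 both removed). It passed in 28 of the 32 alternatives, with adjusted p-values from 0.000679 to 0.187. Day 7 myotubes, before the vehicle, had 0.0741 ± 0.0379 TPM (n = 4), and the vehicle 24 h libraries were above them by 1.00 on the log2 scale (adjusted p = 0.0472, where 0.209% of genes were called). The other gene that passed with both was Patj, a scaffold protein of epithelial polarity complexes, at 9.58, 9.86, 10.9 and 9.69 TPM at 24 h and 6.46, 6.22, 4.97 and 7.07 TPM at 72 h. Its groups did not overlap and it fell 1.62-fold (adjusted p = 0.0196, and 0.0426 at 1.64-fold without replicate 1; 0.0104 with the length trend removed). Patj passed in 24 of the 32 alternatives, with adjusted p-values from 0.00577 to 0.187.

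The sequences around the starts of Myh3 and Eef1a2 are shown because the first is an embryonic isoform that fell with all libraries and the second an adult isoform that rose. Each runs from 250 bases before to 50 bases after the start, from RefSeq on GRCm38.p6, 5′ to 3′, with E-boxes (CANNTG, the letters bound by MyoD family factors, which read the same on both strands) in capitals. The Myh3 sequence lies at chr11:67078050-67078349, plus strand, and the Eef1a2 sequence at chr2:181156966-181157265, minus strand.
Myh3: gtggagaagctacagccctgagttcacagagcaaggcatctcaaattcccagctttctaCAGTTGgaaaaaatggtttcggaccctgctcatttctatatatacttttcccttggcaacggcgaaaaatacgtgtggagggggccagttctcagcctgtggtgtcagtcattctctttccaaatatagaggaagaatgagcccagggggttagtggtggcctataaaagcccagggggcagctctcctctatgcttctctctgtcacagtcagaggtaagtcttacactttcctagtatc
Eef1a2: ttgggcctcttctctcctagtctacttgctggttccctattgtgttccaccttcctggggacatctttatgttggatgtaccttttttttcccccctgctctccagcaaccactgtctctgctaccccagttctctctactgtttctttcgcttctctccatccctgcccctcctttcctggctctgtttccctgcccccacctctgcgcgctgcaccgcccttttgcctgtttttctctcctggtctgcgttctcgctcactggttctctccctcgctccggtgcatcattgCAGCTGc
CANNTG was present in 72.3% of 32851 such start sequences and its form CAGCTG in 16.3%. The Myh3 sequence holds 1 E-box, CAGTTG, and the Eef1a2 sequence 1, of the form CAGCTG and after the start. A TATAAA match, searched on both strands and present in 13.6% of the sequences, lies 29 bases before the Myh3 start. A match is a description of the letters and says nothing on which factors bind.

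The rule for named genes takes genes called both with and without vehicle 72 h replicate 1 and mostly without overlap, so neither property is a result for them. It named 21 genes that rose. Synm (synemin), an intermediate filament protein that ties desmin to the membrane, was at 1.55, 1.83, 0.843 and 2.17 TPM at 24 h and 5.2, 3.6, 4.5 and 3.19 TPM at 72 h. It rose 2.58-fold (adjusted p = 0.0196, and 0.0474 at 2.36-fold without replicate 1). Sspn (sarcospan), a member of the dystrophin-glycoprotein complex, was at 35.5, 41.9, 25.8 and 41.8 TPM at 24 h and 56.9, 61.9, 80 and 53.4 TPM at 72 h. It rose 1.74-fold (adjusted p = 0.0196, and 0.0426 at 1.8-fold without replicate 1). Neither gene's groups overlapped, and both passed with the length trend removed (0.0484 and 0.0377). P3h2, a prolyl 3-hydroxylase of collagen, was at 2.12, 4.24, 2.48 and 3.17 TPM at 24 h and 5.58, 7.25, 6.9 and 5.72 TPM at 72 h, again without overlap, and rose 2.12-fold (adjusted p = 0.0196, and 0.0426 at 2.21-fold without replicate 1). Tor1aip1, a protein of the inner nuclear membrane, rose 1.45-fold, from 35.4 ± 6.64 to 51.3 ± 5.15 TPM (SD, n = 4; adjusted p = 0.0246, and 0.0426 at 1.49-fold without replicate 1).

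The Na-K-Cl cotransporter Slc12a2 was at 15.9, 25.4, 14.3 and 20.8 TPM at 24 h and 31.8, 41.1, 42.6 and 28.9 TPM at 72 h. It rose 1.89-fold (adjusted p = 0.0206, and 0.0426 at 1.97-fold without replicate 1). The phosphate transporter Slc20a2 was at 23.6, 28.3, 24 and 28.1 TPM at 24 h and 53.4, 36.6, 50.4 and 40 TPM at 72 h. It rose 1.73-fold (adjusted p = 0.0206, and 0.0475 at 1.63-fold without replicate 1). In both, all 72 h libraries were above all 24 h libraries. Megf9 (1.90-fold), the carboxypeptidase Cpd (1.71-fold), Enpp4 (1.75-fold), Slc35e1 (1.46-fold) and Efcab14 (1.48-fold) had adjusted p-values of 0.0116, 0.0196, 0.0196, 0.0222 and 0.0256, and these 5 also passed with the length trend removed. The genes Herc2 (1.84-fold), Il6st, the gp130 receptor subunit shared by interleukin-6 type cytokines (1.77-fold), Vps13c, a lipid transfer protein (1.76-fold), Ncoa2, a coactivator of nuclear receptors (1.70-fold), Steap2 (1.62-fold) and Bace1, the beta-secretase (1.49-fold), were called with and without vehicle 72 h replicate 1 but not once the length trend was removed, where their adjusted p-values were 0.0558, 0.0851, 0.183, 0.0621, 0.135 and 0.152. The log2 differences of these 6 ran from 0.31 in Bace1 to 0.52 in Herc2 before that removal and from 0.17 in Steap2 to 0.28 in Il6st after it. That of Cpd, which passed, went from 0.45 to 0.27.

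The genes named by rule that fell in both fits had varied functions. Ecm1, a secreted matrix glycoprotein, was at 166, 218, 236 and 190.1 TPM at 24 h and 136, 128, 136 and 147 TPM at 72 h, without overlap, and fell 1.48-fold (adjusted p = 0.0196, and 0.0426 at 1.48-fold without replicate 1). Svbp, the small partner of the vasohibin tubulin carboxypeptidases, was at 170.5, 143, 167 and 152 TPM at 24 h and 112, 110.5, 114 and 114 TPM at 72 h, a fall of 1.40-fold with a narrow spread at 72 h (adjusted p = 0.0196, and 0.0426 at 1.4-fold without replicate 1). Atpif1, the inhibitor of mitochondrial ATP synthase, was at 398, 345, 419 and 372 TPM at 24 h and 282, 277, 269 and 304 TPM at 72 h, a fall of 1.35-fold (adjusted p = 0.0246, and 0.0426 at 1.35-fold without replicate 1). Ecm1, Svbp and Atpif1 passed with the length trend removed (0.0484, 0.0377 and 0.0484), and so did Igbp1, a partner of protein phosphatase 2A (1.23-fold), Sin3b, a transcriptional corepressor (1.24-fold), and Exoc3l4 (1.5-fold). Not called after that removal were the histone variant H2afj (1.54-fold), Gchfr, the regulator of GTP cyclohydrolase (1.52-fold), Hebp2 (1.5-fold), Sat1, the polyamine acetyltransferase (1.33-fold), Tmem203 (1.37-fold), Iah1 (1.32-fold), S100a13 (1.25-fold) and Mcpt8, a granule protease (2.16-fold), whose adjusted p-values with all libraries ran from 0.0256 in H2afj to 0.0336 in S100a13. After that removal their adjusted p-values ran from 0.0562 in Hebp2 to 0.15 in S100a13. The log2 difference of Hebp2 went from −0.50 to −0.46, that of H2afj from −0.50 to −0.41, that of Mcpt8 from −0.89 to −0.73 and that of S100a13 from −0.32 to −0.15. Mcpt8 was at 16.1, 8.55, 14.1 and 8.88 TPM at 24 h and 7.73, 4.33, 2.76 and 7.3 TPM at 72 h. Chrna1os, transcribed from the opposite strand at the acetylcholine receptor gene Chrna1, fell 1.79-fold (adjusted p = 0.0264, and 0.0426 at 1.88-fold without replicate 1; 0.0641 with the length trend removed) while Chrna1 was at 397, 481, 479 and 513 TPM at 24 h and 477, 498, 626 and 581 TPM at 72 h and did not pass (adjusted p = 0.779). The labels do not state whether counting used the strand, so reads of this pair may not be separated.

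List members that passed with all libraries and missed the threshold without vehicle 72 h replicate 1 were chosen after their values were seen, as were Kirrel, Myl4 and Actc1 above and the uncalled examples from lists. Without vehicle 24 h replicate 3, or without vehicle 72 h replicate 3, no list but that of fusion held a called gene. These fits called 2 and 5 genes in all. Of 25 excitation-contraction coupling genes tested, 3 were called higher, against 2.67% of all genes, and none lower, and none passed without vehicle 72 h replicate 1. In this list 23 genes had a positive difference, as did 8221 of the 16257 genes tested, and the median was 0.17 (0.11 without the library, 0.13 with the length trend removed). Trdn (triadin), which anchors calsequestrin to the calcium release channel, was at 20.4, 14, 8.63 and 18.6 TPM at 24 h and 60.3, 24.6, 44.1 and 30.8 TPM at 72 h. The groups did not overlap and the rise was 2.59-fold, with 72 h replicate 1 highest (adjusted p = 0.0394, and 0.0854 at 2.15-fold without replicate 1). Cacna2d1, a subunit of the voltage sensor channel, was at 60.2, 52.3, 37.5 and 56.2 TPM at 24 h and 98.9, 76.2, 84.7 and 71.2 TPM at 72 h, without overlap (adjusted p = 0.0436, and 0.096 at 1.5-fold without replicate 1). The chloride channel Clcn1 was called too, at levels of 0.298 TPM or less in all 8 libraries (adjusted p = 0.028). Ryr1, the release channel itself, was at 39.4, 37.8, 24.2 and 31.8 TPM at 24 h and 60.6, 38.9, 73.5 and 41.4 TPM at 72 h, with overlap, and did not pass (adjusted p = 0.108).

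Of 29 Z-disc, M-band and filament scaffold genes tested, 1 was called higher, a share near the 2.67% of all genes. A positive difference was seen in 26, as in 8221 of all 16257 genes, and the median was 0.20 (0.14 without vehicle 72 h replicate 1, 0.13 with the length trend removed). Lmod2 (leiomodin), which nucleates and lengthens thin filaments, was at 96.2, 119, 75.2 and 114 TPM at 24 h and 151, 147, 193 and 154 TPM at 72 h. It rose 1.6-fold without overlap (adjusted p = 0.0329, and 0.0592 at 1.63-fold without replicate 1; 0.0484 with the length trend removed). Ttn (titin) was at 24.5, 21.7, 11.1 and 14.7 TPM at 24 h and 40.8, 32.5, 34.2 and 24.5 TPM at 72 h and Neb (nebulin) at 143, 102, 64.4 and 88.9 TPM at 24 h and 200.5, 130.1, 194 and 146 TPM at 72 h, both with higher means at 72 h and neither passing (adjusted p = 0.0776 and 0.0693). Csrp3, a mechanosensing LIM protein, was lower in the mean, at 202, 107, 128 and 124 TPM at 24 h and 126, 90.4, 100.4 and 106 TPM at 72 h, and did not pass (adjusted p = 0.0912). None of 19 neuromuscular junction genes passed (median 0.14), and 6 had an unadjusted p under 0.05 in the higher direction and 1 in the lower, where 13.1% and 11.6% of all genes did. Musk, the receptor kinase that organises the junction, was at 17.1, 21.9, 14.5 and 20.6 TPM at 24 h and 24.7, 32.2, 48 and 24.1 TPM at 72 h (adjusted p = 0.0744).

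Of 20 ubiquitin ligases linked to muscle wasting, 4 were called higher with all libraries, where 2.67% of all genes were, and none lower. Without vehicle 72 h replicate 1 there was 1, where 0.308% of all genes were called higher. Their median was 0.22 (0.21 without the library, 0.12 with the length trend removed). The one that passed in both was Asb15, a muscle ankyrin repeat protein, at 0.375, 0.514, 0.238 and 0.545 TPM at 24 h and 1.69, 0.937, 2.09 and 0.811 TPM at 72 h, whose log2 difference was 1.03 ± 0.19 (SE; adjusted p = 0.0196, and 0.0464 at a log2 difference of 0.93 without replicate 1; 0.0377 with the length trend removed). Asb2, which targets filamins for degradation, was at 11.8, 20.1, 9.88 and 18.4 TPM at 24 h and 30.5, 26, 41.9 and 22.3 TPM at 72 h. It rose 2.01-fold without overlap (adjusted p = 0.0385, and 0.0694 at 2-fold without replicate 1). Ubr2 and Traf6 had 1.49-fold and 1.42-fold higher means (adjusted p = 0.0336 and 0.0376 with all libraries). The ligases best known from atrophy did not pass. Trim63 (MuRF1) was at 25.2, 37.8, 29.7 and 36.8 TPM at 24 h and 44.9, 40.3, 56.1 and 42.1 TPM at 72 h, without overlap (adjusted p = 0.157). Fbxo32 (atrogin-1) was at 19.7, 29.8, 13.8 and 26.9 TPM at 24 h and 34, 30.2, 44.5 and 21.6 TPM at 72 h, with overlap (adjusted p = 0.236).

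Of 29 myostatin, activin and TGF-beta signalling genes tested, 4 were called higher, where 2.67% of all genes were, and none lower. The number called higher was 8 without vehicle 24 h replicate 2, where 927 of all 16257 genes were. It was 0 without vehicle 72 h replicate 1, where 50 of all genes were. It was also 0 with the length trend removed, where 34 of 16214 genes were. A positive difference was seen in 28, as in 8221 of all 16257 genes, and the median was 0.18 (0.22 without the library, 0.17 with the length trend removed). The activin and myostatin receptor Acvr2a was at 9.15, 11.1, 7.12 and 10.7 TPM at 24 h and 15.9, 16.9, 17.9 and 14.4 TPM at 72 h. It rose 1.71-fold (adjusted p = 0.0313, and 0.0593 at 1.72-fold without replicate 1). The TGF-beta receptor Tgfbr1 was at 9.42, 11.2, 6.62 and 10.1 TPM at 24 h and 17.7, 15.5, 21.6 and 11.7 TPM at 72 h. It rose 1.78-fold (adjusted p = 0.0313, and 0.0623 at 1.74-fold without replicate 1). Both had no overlap, and vehicle 24 h replicate 3 was the lowest library in each. Skil, a SMAD corepressor and target, was at 17.1, 22.5, 14.4 and 18.9 TPM at 24 h and 25.1, 35.2, 24.4 and 26.6 TPM at 72 h. It rose 1.52-fold (adjusted p = 0.028, and 0.0565 at 1.57-fold without replicate 1). Ccn2, the connective tissue growth factor induced by TGF-beta and by YAP, was at 84.3, 93.3, 50.1 and 86.8 TPM at 24 h and 203, 146, 144 and 154 TPM at 72 h. It rose 2.05-fold (adjusted p = 0.0415, and 0.0863 at 1.88-fold without replicate 1). The ligand Mstn (myostatin) stayed at 0.316 TPM or less in all 8 libraries and the antagonist Fst (follistatin) had means of 141 TPM at 24 h and 173 TPM at 72 h (adjusted p = 0.771).

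In the insulin-like growth factor list of 19 genes, 1 was called higher and 2 lower with all libraries, where 2.67% and 1.69% of all genes were, and none without vehicle 72 h replicate 1 (median 0.29; 0.11 with the length trend removed). The insulin receptor Insr was at 6.56, 9.73, 5.43 and 7.84 TPM at 24 h and 11.8, 14.2, 16.1 and 10.7 TPM at 72 h. It rose 1.78-fold (adjusted p = 0.0389, and 0.0623 at 1.85-fold without replicate 1). The binding protein Igfbp2 was at 50.9, 44.9, 142 and 50.7 TPM at 24 h and 16.1, 25.6, 31.6 and 29.4 TPM at 72 h, a 2.81-fold fall in the means (adjusted p = 0.0477, and 0.0933 at 2.5-fold without replicate 1), where 24 h replicate 3 stood highest. Igfbp6 was at 221, 223, 280.4 and 212 TPM at 24 h and 178, 196, 162 and 208 TPM at 72 h, a 1.26-fold fall without overlap (adjusted p = 0.0398, and 0.0668 at 1.24-fold without replicate 1). Igf1 had means of 77.2 TPM at 24 h and 132 TPM at 72 h with wide spread (adjusted p = 0.408). Igf2 was high in replicate 1 of both groups, at 59.6, 28.3, 18.3 and 24.5 TPM at 24 h and 71, 17.5, 25.9 and 15.8 TPM at 72 h, and its means were 32.7 TPM at 24 h and 32.5 TPM at 72 h (adjusted p = 0.827).

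Of 20 circadian clock genes, 2 were called higher with all libraries, where 2.67% of all genes were. Without vehicle 72 h replicate 1 there was 1, where 0.308% of all genes were called higher. The number called was 5 without vehicle 24 h replicate 2, where 1751 of all 16257 genes were called. It was also 5 without vehicle 72 h replicate 4, where 962 were. In this list 19 genes had a positive difference, as did 8221 of all 16257 genes, and the median was 0.26 (0.28 without the library, 0.19 with the length trend removed). Tef, a PAR bZIP factor of the clock's output, was at 64.9, 79.5, 58.2 and 80.8 TPM at 24 h and 96.1, 113, 139 and 99.1 TPM at 72 h. It rose 1.58-fold without overlap (adjusted p = 0.0256, and 0.0426 at 1.65-fold without replicate 1; 0.0562 with the length trend removed). Clock itself was at 11.2, 13.9, 10 and 11.6 TPM at 24 h and 17.8, 20.7, 16.9 and 14.2 TPM at 72 h. It rose 1.49-fold (adjusted p = 0.0394, and 0.0742 at 1.47-fold without replicate 1). Dbp, a close relative of Tef, was at 25.9, 27.9, 17.3 and 32.1 TPM at 24 h and 28.1, 37.6, 54.1 and 45.9 TPM at 72 h, with overlap (adjusted p = 0.0863). The glucocorticoid receptor Nr3c1 was at 21.4, 31.1, 18 and 27.4 TPM at 24 h and 34.1, 48, 37.1 and 32.3 TPM at 72 h. It rose 1.55-fold without overlap (adjusted p = 0.0367, and 0.0594 at 1.6-fold without replicate 1; 0.136 with the length trend removed). None of 29 receptor target genes passed, where 4.36% of all genes did, and their median of 0.24 was 0.04 without vehicle 72 h replicate 1.

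The ribosomal protein genes differed in a single direction without passing one by one. All 35 cytosolic ribosomal protein genes tested had a negative difference, 32 with an unadjusted p under 0.05 in the lower direction, where 11.6% of all genes did, and none was called, whereas 18 were without vehicle 24 h replicate 2. Their median was −0.32 (−0.35 without vehicle 72 h replicate 1, −0.19 with the length trend removed, −0.27 after quantile normalisation) and in log2 TPM −0.35. Rpl23 was at 1271, 1195, 1263 and 1134 TPM at 24 h and 1023, 1012, 950.5 and 1065 TPM at 72 h, without overlap (adjusted p = 0.0552). Rps14 was at 2219, 1394, 2128 and 1374 TPM at 24 h and 1503, 1252, 966 and 1184 TPM at 72 h, and its replicates 1 and 3 at 24 h held the high values (adjusted p = 0.0813). Their transcripts are short, with a median of 1248 bases. Of 36 proteasome genes, 33 had a negative difference and 1 was called lower, where 1.69% of all genes were, and 18 were called without vehicle 24 h replicate 2. Their median was −0.21, which was −0.08 with the length trend removed. The called gene was Psme1, a subunit of the interferon-inducible activator, at 41.1, 31.7, 41.1 and 31.2 TPM at 24 h and 28.5, 27.4, 21.8 and 28.3 TPM at 72 h (adjusted p = 0.0459, and 0.0623 at 1.4-fold without replicate 1).

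**Figure D5:**
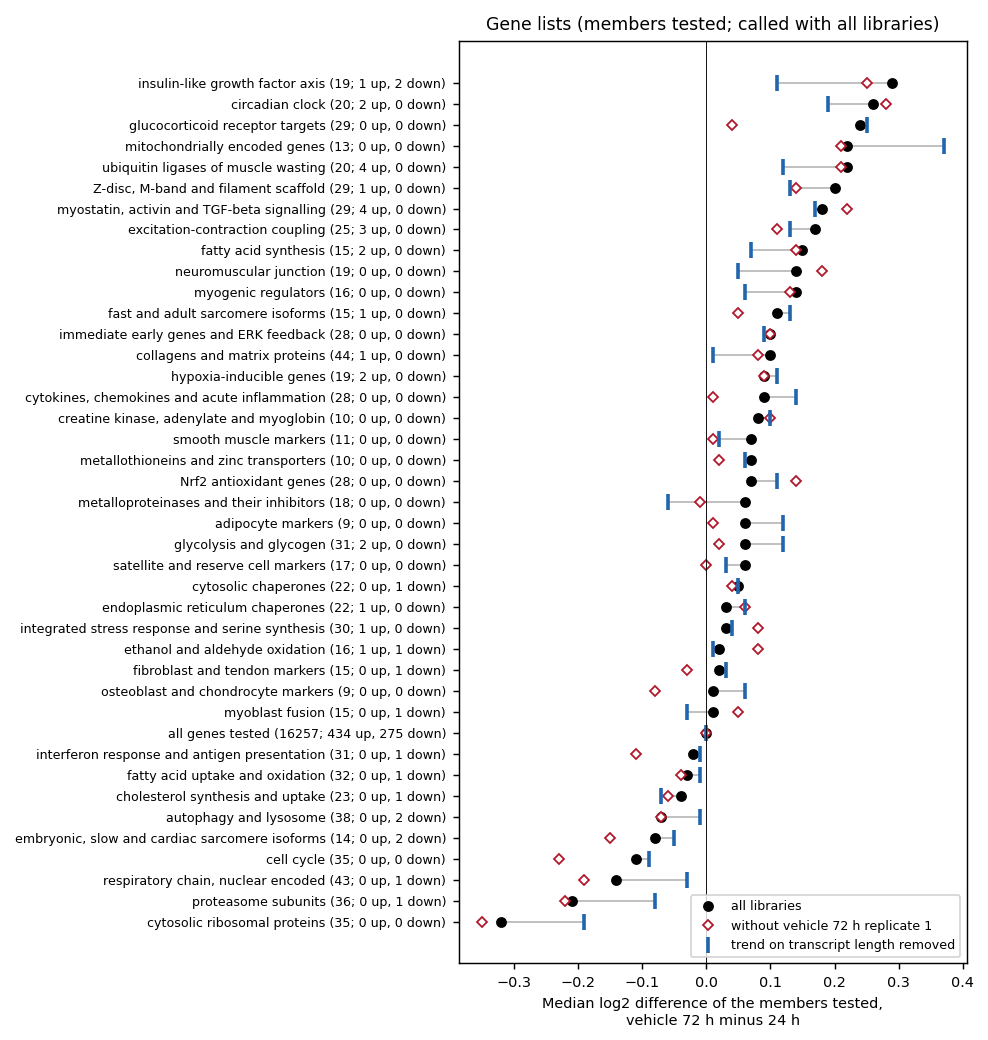
Median log2 difference between vehicle 72 h and 24 h (x axis) of the tested members of each gene list with 8 or more tested (rows; in brackets the members tested and those called with all libraries) for all libraries (black), without vehicle 72 h replicate 1 (open diamonds) and with the length trend removed (blue ticks). Ribosomal proteins lie lowest at −0.32, and glucocorticoid receptor targets move from 0.24 to 0.04 without that library.

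The medians of nuclear and mitochondrial genes of the respiratory chain differed in sign. Of 43 nuclear-encoded genes tested, 38 had a negative difference, as did 8036 of all 16257 genes. Only 1 was called lower, where 1.69% of all genes were. Their median was −0.14, which was −0.03 with the length trend removed. Their transcripts are short, with a median of 1232 bases, and the fifth of all genes with the shortest transcripts also had a median of −0.14. All 13 mitochondrially encoded genes had a positive difference, as did 8221 of all 16257 genes. None was called, where 4.36% of all genes were, and the median was 0.22 (0.21 without vehicle 72 h replicate 1, 0.37 with the length trend removed). The highest value of mt-Co1, the catalytic subunit of complex IV, came from 72 h replicate 3, with 9629, 12310, 7764 and 12040 TPM at 24 h and 16740, 12570, 24470 and 11360 TPM at 72 h (adjusted p = 0.224).

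Among metabolic genes, 2 of 15 in fatty acid synthesis were called higher with all libraries, where 2.67% of all genes were, and none without vehicle 72 h replicate 1. Acaca, the acetyl-CoA carboxylase, was at 9.28, 10.5, 8.34 and 9.34 TPM at 24 h and 14.6, 15.8, 13.6 and 12.5 TPM at 72 h. It rose 1.51-fold (adjusted p = 0.0376, and 0.0707 at 1.49-fold without replicate 1). Srebf1, the factor that drives lipogenic genes, was at 22.3, 28.7, 30.1 and 27.7 TPM at 24 h and 35.3, 40.1, 39.4 and 40.9 TPM at 72 h. It rose 1.43-fold (adjusted p = 0.0388, and 0.0603 at 1.48-fold without replicate 1). Pfkfb3, which sets the level of the glycolytic activator fructose 2,6-bisphosphate, was at 2.55, 4.5, 3.39 and 3.82 TPM at 24 h and 5.66, 8.35, 5.89 and 6.12 TPM at 72 h. It rose 1.82-fold (adjusted p = 0.0425, and 0.0623 at 1.9-fold without replicate 1). In all 3 the groups did not overlap. Akr1c14, a hydroxysteroid dehydrogenase, was at 4.53, 3.92, 1.74 and 5.86 TPM at 24 h and 13.4, 11.6, 12.3 and 9.04 TPM at 72 h. It rose 2.89-fold without overlap (adjusted p = 0.0268, and 0.0585 at 2.74-fold without replicate 1; 0.0484 with the length trend removed). Atf5, a factor of the integrated stress response, was at 79.7, 91.9, 88 and 90.9 TPM at 24 h and 112, 121, 170.3 and 157 TPM at 72 h. It rose 1.6-fold (adjusted p = 0.0388, and 0.0565 at 1.71-fold without replicate 1; 0.0484 with the length trend removed). P4ha1, the prolyl 4-hydroxylase of collagen, was at 109, 112, 113 and 110.3 TPM at 24 h and 179, 185, 134 and 198 TPM at 72 h. It rose 1.57-fold (adjusted p = 0.0432, and 0.0794 at 1.55-fold without replicate 1). Sel1l, an adaptor of endoplasmic reticulum degradation, rose 1.49-fold and passed in both fits (adjusted p = 0.028, and 0.0475 at 1.55-fold without replicate 1; 0.0762 with the length trend removed). Of 22 endoplasmic reticulum chaperone genes it was the only one called, where 2.67% of all genes were called higher. The median of the 22 was 0.03.

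The vehicle is ethanol, and 16 genes of ethanol and aldehyde oxidation were tested. Their median was 0.02, with 8 positive and 8 negative differences. Akr1c14 was called higher and Akr1b8, an aldo-keto reductase, lower (1.28-fold, with overlap; adjusted p = 0.028, and 0.0623 at 1.21-fold without replicate 1), where 2.67% and 1.69% of all genes were. Aldh2, the mitochondrial enzyme that clears acetaldehyde, was at 257, 442, 488 and 397 TPM at 24 h and 289.7, 462, 499 and 476 TPM at 72 h and did not pass (adjusted p = 0.998). Both groups were in 1% ethanol, for 24 h and 72 h, so the age of the culture and the time in ethanol cannot be told apart. In the autophagy and lysosome list of 38 genes, 2 were called lower and none higher with all libraries, where 1.69% and 2.67% of all genes were. The median was −0.07 in the log2 values, where that of all genes was 0.00, and 0.03 in log2 TPM, where that of all genes was 0.13. They were Gabarap, a protein of autophagosome membranes (616 to 749 TPM at 24 h and 519 to 628 TPM at 72 h), and Npc2, a lysosomal cholesterol carrier (164 to 193 TPM at 24 h and 124 to 159 TPM at 72 h), with adjusted p-values of 0.0469 and 0.0381. Members called lower in other lists, where 1.69% of all genes were, included Acads of fatty acid oxidation (32 tested), Hspb2, a muscle small heat shock protein, of the cytosolic chaperones (22 tested), and Ifi27 of the interferon response (31 tested), with adjusted p-values of 0.0399, 0.0322 and 0.0388. None of these passed without vehicle 72 h replicate 1. No member was called among 28 antioxidant genes of Nrf2, 28 cytokine and inflammation genes, 28 immediate early genes, 18 metalloproteinases and inhibitors, 10 metallothioneins and zinc transporters and 10 creatine kinase, adenylate and myoglobin genes, whose medians lay from 0.06 to 0.1. Over all genes 4.36% were called, a share at which lists of these sizes may hold none.

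The myogenic regulators tested did not pass. Myog was at 1236, 1507, 1236 and 1339 TPM at 24 h and 1117, 1429, 1076 and 1400 TPM at 72 h (adjusted p = 0.399) and Myod1 at 124, 144, 141 and 138 TPM at 24 h and 125, 139, 160.4 and 144 TPM at 72 h (adjusted p = 0.701). None of 16 myogenic regulators was called, none of 17 satellite and reserve cell markers and none of 35 cell cycle genes, whose medians were 0.14, 0.06 and −0.11. Over all genes 4.36% were called, and at that share lists of these sizes may hold none. Pax7, the satellite cell factor, was at 1.22 to 2.44 TPM at 24 h and 1.78 to 3.75 TPM at 72 h. Mki67, expressed in cycling cells, was at 0.228 to 2.16 TPM at 24 h and 0.0688 to 1.65 TPM at 72 h, and its groups overlapped. Of 44 collagen and matrix genes P4ha1 alone was called, a share near the 2.67% of all genes called higher. Col1a1 had means of 253 TPM at 24 h and 228 TPM at 72 h (adjusted p = 0.712), Col3a1 of 1931 TPM at 24 h and 2266 TPM at 72 h (0.879) and the matricellular protein Postn of 868 TPM at 24 h and 816 TPM at 72 h (0.783).

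Markers of other cell fates were present unevenly. Fibroblast and tendon markers, of which 15 of 20 found were tested and 5 were under 0.1 TPM in each group, summed to 4982.7 to 6580.4 TPM at 24 h and 2908.5 to 4740.2 at 72 h; most of the sum was S100a4, at 5475, 4044, 5336 and 3894 TPM at 24 h and 3777, 3716, 2184 and 3496 TPM at 72 h (adjusted p = 0.0622). The tendon factor Scx was the only one of these markers called, 1.21-fold lower with overlap (adjusted p = 0.0407, and 0.0698 at 1.19-fold without replicate 1), where 1.69% of all genes were called lower. Smooth muscle markers summed to 3084.1 to 3438.2 TPM at 24 h and 3479.4 to 4081.8 at 72 h, and Myh11 was at 0.0327 TPM or less in all 8 libraries. None of 11 was called, where 4.36% of all genes were. Adipocyte markers summed to 67.7 to 79.5 TPM at 24 h and 72.8 to 101.0 at 72 h (85.0 at most without replicate 1), with Lep at 0 in all 8 libraries and none of 9 called. Osteoblast and chondrocyte markers summed to 922.0 to 3861.6 TPM at 24 h and 1942.0 to 3944.5 at 72 h (2170.8 at most without replicate 1), and Acan and Dlx5 were at 0. In bulk RNA fewer cells of a type and less RNA per cell cannot be told apart, and the part of these markers in the results above was not tested.

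Over the same 2 days with dexamethasone more genes were called: 4632 (28.5%) between dexamethasone 72 h and 24 h, against 709 (4.36%) in vehicle. The number called is no measure of the size of the differences. The interaction, the time difference with dexamethasone minus that in vehicle, was called for 1842 genes (11.3%), 904 higher (5.56%) and 938 lower (5.77%), that is 49.1% higher, or 36.2% of 1656 by log2(TPM + 0.1). Without vehicle 72 h replicate 1 it was called for 1797 genes. Many genes named above did not pass for the interaction, and a p that misses the threshold does not show that the time courses were alike. Eef1a2 was at 0.275 ± 0.0202 and 1.27 ± 0.369 TPM with dexamethasone at 24 h and 72 h (SD, n = 4), and its interaction had an adjusted p of 0.735. Mymx was at 237 ± 19.8 and 163 ± 40.8 TPM (interaction adjusted p = 0.328), and Myh3 at 188 ± 39.3 and 76.8 ± 7.39 TPM (0.121). The interaction did pass for some. Ecm1 was at 156 ± 13.1 and 185 ± 29.5 TPM with dexamethasone, against its fall in vehicle (0.62 on the log2 scale, adjusted p = 0.00193). Vps13c was at 11.4 ± 0.704 and 8.69 ± 1.09 TPM, against its rise in vehicle (−0.76, adjusted p = 0.00267). Akr1c14 was at 6.93 ± 0.969 and 5.47 ± 2.73 TPM, against its rise in vehicle (−1.38, adjusted p = 0.00619), and Nr3c1 at 25.6 ± 2.64 and 23.6 ± 2.38 TPM (−0.44, adjusted p = 0.0244). For these 4 genes the interaction also passed without vehicle 72 h replicate 1 (adjusted p = 0.00296, 0.00287, 0.0133 and 0.0299). The library labelled dexamethasone 72 h replicate 1 held 7 genes near 0 in the rest of its group at a median of 7.1% of their vehicle level. The other dexamethasone 72 h libraries had 1 such gene each, at 0% to 2.0%, and dexamethasone 24 h replicates 1 to 3 had 1 each, at 5.95%, 95.5% and 8.71%. Without both 72 h replicate 1 libraries 2466 genes were called for the interaction. The interaction shares the vehicle libraries with the comparison above and is no independent support for it.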

How the data were processed

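RNA of 24 C2C12 libraries was sequenced after stranded mRNA library preparation, per the labels' protocols. The submitters' processing notes name GRCm39, kallisto 0.51.1, Salmon and DESeq, without saying what each was used for. The authors deposited log2 values normalised between libraries, by a method not given in the sources used here, and TPM, for 48544 genes each. The log2 table had been assumed to hold normalised values of unknown scale; its values run from −2.33 to 20.06 and were used as they stand. Depth is unknown, so no counting interval was computed. Symbols were matched by identifier for 48291 genes.

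Genes with 2 to the power of the value at 10 or more in at least 4 libraries (16257) entered a limma fit (version 3.58.1, R 4.3.3; empirical Bayes, mean-variance trend), all 24 libraries in 1 fit with 1 mean per group, at a Benjamini-Hochberg adjusted p under 0.05. The fit was tested on simulated data. TPM tests used genes at 0.5 TPM or more in at least 4 libraries and a pseudocount of 0.1 or 1. Length trends were removed per library by lowess. Folds are ratios of mean TPM where the lower mean is at least 0.5. Alternatives left out single libraries or changed the scale, filter, normalisation, weights, replicate block or groups fitted. Named genes are the 12 with the largest and 12 with the lowest TPM ratio among those called with and without vehicle 72 h replicate 1 (2 TPM or more in a group, no overlap without that library), the 10 of lowest adjusted p without that library in each direction at 20 TPM or more, up to 4 members per list called in both fits, and a fixed set of reference genes. The groups, the 41 lists and the rule were chosen with earlier results of these data known. A few genes are not reported here.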

Additional observations from a re-analysis of the deposited data

Results flagged for a closer look

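In 202 checks of the log2 values of a named gene within a group of 4 libraries, 9 had an end library whose gap to the next was, as a share of the group's range, over Dixon's 95% limit, which chance passes in about 1 in 20 groups. A count of 9 in 202 is near that chance rate. Vehicle 72 h replicate 1 held 5 of the 9, as the high library. The genes were Tsc22d3 (gap 0.89 of the range, 108 TPM), Serpina3n (0.931, 25.3 TPM), Lbp (0.832, 12.2 TPM), Fabp4 (0.977, 8.14 TPM) and Zbtb16 (0.952, 0.412 TPM). These 5 are reference genes chosen because dexamethasone raises them. The library was already singled out above for such transcripts, so its 5 flags are no separate result. Vehicle 72 h replicate 3 held Igfbp5 (0.892, 893 TPM) and Col1a1 (0.87, 113 TPM). Vehicle 24 h replicate 3 was the low library for Ccn2 (0.92, 50.1 TPM) and Tgfbr1 (0.912, 6.62 TPM). Gaps are on the log2 scale, and the TPM beside them give only the level. The cause of these gaps was not tested.

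For 20 of 101 named genes the time difference with dexamethasone minus that in vehicle passed the test of the difference itself (log2 scale, limma, adjusted p under 0.05). Over all genes tested 11.3% passed. The named genes include reference genes chosen because dexamethasone raises them, so the count is no result about the named genes. It refers to all libraries. The difference was negative for Vps13c (−0.76), Enpp4 (−0.49), Tor1aip1 (−0.29), Skil (−0.43), Akr1c14 (−1.38), Pfkfb3 (−0.74), Nr3c1 (−0.44), Fbxo32 (−0.72), Fst (−1.32), Igf1 (−1.97), Pax7 (−0.94), Col3a1 (−1.34) and Postn (−2.38), and for the dexamethasone-raised genes Klf15 (−2.22), Lbp (−3.46), Orm1 (−2.48) and Cebpa (−1.04). It was positive for Ecm1 (0.62), Mki67 (2.62) and Ccnd1 (2.77). The last 2, like Igf1, Pax7, Fst, Fbxo32, Col3a1 and Postn, did not pass between vehicle 72 h and 24 h. For Pax7 the interaction missed the threshold without vehicle 72 h replicate 1 (limma, adjusted p = 0.052) and with the length trend removed (0.056).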

How the results depend on the processing

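The 709 genes called between vehicle 72 h and 24 h became 2 to 1751 when single libraries were left out, 380 without both 72 h replicate 1 libraries, 4 with only the groups compared in the fit, 270 and 264 by log2(TPM + 0.1) and log2(TPM + 1), 94 with no filter on low values and 438 with array weights. With a filter at 50 they were 870 and after quantile normalisation 626. Alternatives chosen after seeing the data left out vehicle 72 h replicate 1 together with a second choice and gave 0 by log2(TPM + 0.1) (limma, lowest adjusted p 0.0599), 88 with the replicate block, 2 with only the groups compared and 120 after quantile normalisation. With the length trend removed, also chosen later, 53 were called, 2 with vehicle 72 h replicate 1 left out, 1 to 115 with another library left out (3, 113, 1 and 55 for vehicle 24 h replicates 1 to 4 and 18, 5 and 115 for vehicle 72 h replicates 2 to 4), 1 with only the groups compared and 175 with the replicate block. The 709 kept their sign in every fit of the log2 values that tested them, and 705 to 708 of 708 did with the length trend removed. Called genes were chosen for a difference in these same libraries, so kept signs are no separate support. Of 63 called genes named, none changed sign, while 21 of 38 uncalled ones did in some alternative without passing. Myh8 and Mylpf, not called, passed in some.

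Replicate numbers are shared between the groups in the labels. Deviations of same-numbered libraries correlated at 0.56, 0.24, −0.25 and −0.0045. The value of 0.56, between the replicate 1 libraries, was the highest of all pairs. Vehicle 24 h replicate 3 correlated best with vehicle 72 h replicate 4 (0.44). So few values do not settle whether the numbers mark pairs. With the replicate block the test called 1067 genes.

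The time difference with dexamethasone minus that in vehicle was called for 1842 genes, for 1241 to 2686 with a library left out and for 3671 with array weights, and otherwise stayed within 1.5 times. Depth is unknown, so it is not known which low genes, such as Eef1a2 and Asb15, rest on few reads. A left-out library leaves 3 against 4, and no cause of the changes was tested.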
